A study of Mus musculus with 20 samples.

Results

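Hyaluronan is a very long, unsulfated sugar polymer of the extracellular matrix, and 8 genes for its synthesis, binding and breakdown were followed in the mouse abdominal aorta, of 43422 genes measured. They encode the synthases Has1 and Has2, the receptor Cd44, the binding proteins Tnfaip6 and Vcan, and the degrading proteins Hyal1, Hyal2 and Cemip. The genes were chosen by their role in this pathway, and Has1, Tnfaip6 and Cd44 also because their measured values were among the strongest signals of the experiment, which was taken to mean the contrast of Ang II-treated Plod1-/- with Ang II-treated WT mice. That contrast, and every other that uses the Ang II-treated Plod1-/- mice, is therefore given for the 8 genes as a description without a test.

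RNA was sequenced from the abdominal aorta of 20 mice on day 14 of infusion, with 5 mice in each of 4 groups. WT mice and Plod1-/- mice each received either saline or Ang II, and all were C57BL/6 and 6 months old per the labels. The study's methods name the substrain C57Bl/6NCrl and give a younger age at pump implantation. Angiotensin II (Ang II), a pressor peptide used to induce dissecting aneurysms, was given by osmotic pumps under the skin at 1000 ng/kg per minute. Plod1-/- mice lack lysyl hydroxylase 1, the enzyme that hydroxylates lysines of collagen, and the study describes them as littermates of the WT mice and all mice as males. All groups carried a pump, so its implantation is shared by the controls.

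Hyaluronan is assembled at the plasma membrane by the synthases from UDP-glucuronic acid and UDP-N-acetylglucosamine and is extruded into the matrix as it grows. CD44 anchors the polymer to cells, TSG-6 (the product of Tnfaip6) transfers protein heavy chains onto it, and versican (Vcan) packs it into large aggregates. HYAL2 and CEMIP cut long chains at or near the cell surface and HYAL1 finishes the digestion in lysosomes. In arteries the polymer is made mainly by smooth muscle cells and fibroblasts and is known to accumulate in the injured wall.

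Levels are in FPKM, the fragments counted on a gene scaled by its transcript length and by the size of the library. Plod1 checked the genotype labels: it lay between 22.8 and 29.7 FPKM in the WT mice and at no more than 0.0415 in the Plod1-/- mice. Xist, an RNA of female cells, was present in 2 of the 20 libraries, saline-treated Plod1-/- replicate 5 (15.1 FPKM) and Ang II-treated Plod1-/- replicate 1 (7.93 FPKM), and at no more than 0.0328 in the other 18, which goes against a study of males. The smooth muscle marker Acta2 was abundant in every mouse (1901 to 17680 FPKM), although Tagln, another such marker, was listed at no more than 12.2 FPKM. Ang II-treated Plod1-/- replicate 1 stood apart from its group, with 17540 FPKM summed over 10 smooth muscle markers against 2428 to 6367 in the other 4 mice. Differences below are of log2(FPKM + 1); for genes of low FPKM the added 1 makes them smaller than the true fold. A gene was called when limma's Benjamini-Hochberg adjusted p was below 0.05 and the difference exceeded 1 in size.

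The sequence upstream of Has1 and Tnfaip6 is shown because the RNA of these members moved most closely together from mouse to mouse. Each is the 250 bases before the RefSeq start site, 5′ to 3′ on the strand of the gene, from GRCm38.p6: chr17:17855189-17855438 on the minus strand for Has1 and chr2:52037863-52038112 on the plus strand for Tnfaip6. Capitals mark matches to 5 searched motifs, and no 2 of the marked matches overlap.
Has1: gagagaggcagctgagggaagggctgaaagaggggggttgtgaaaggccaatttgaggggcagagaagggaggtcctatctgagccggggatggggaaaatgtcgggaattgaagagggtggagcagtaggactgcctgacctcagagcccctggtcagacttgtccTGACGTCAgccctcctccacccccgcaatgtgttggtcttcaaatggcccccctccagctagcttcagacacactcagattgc
Tnfaip6: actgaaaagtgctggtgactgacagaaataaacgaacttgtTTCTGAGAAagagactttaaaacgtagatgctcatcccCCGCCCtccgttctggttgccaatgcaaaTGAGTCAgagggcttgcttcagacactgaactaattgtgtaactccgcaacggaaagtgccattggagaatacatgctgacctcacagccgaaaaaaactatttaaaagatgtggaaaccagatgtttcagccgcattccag

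RefSeq promoter sequences of 300 bases, 250 before and 50 after the start, were matched for 7 of the 8 members by symbol, and both strands were searched. The capitals in Has1 are the CRE motif TGACGTCA, which began 83 bases before the start and which 1.79% of all 32851 promoters held. In Tnfaip6 they are, from left to right, the STAT motif TTCNNNGAA 209 bases before the start, the Sp1 motif GGGCGG on the opposite strand 171 bases before it and the AP-1 motif TGANTCA 142 bases before it. Of all promoters, 8.3%, 35.7% and 7.81% held these motifs. The NF-kB motif GGANTTTCC, held by 1.25% of all promoters, was in none of the 7 sequences. A match is a description of letters and says nothing about a factor's binding.

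Has1 lies on chromosome 17 of GRCm38 from 17843323 to 17855205 on the minus strand (ENSMUSG00000003665). Its FPKM in Ang II-treated Plod1-/- replicates 1 to 5 was 9.31, 9.44, 12.7, 8.11 and 17.1. In Ang II-treated WT replicates 1 to 5 it was 1.52, 0.628, 0.312, 0.967 and 0.697. Every Ang II-treated Plod1-/- mouse lay above every other mouse of the study. The saline-treated Plod1-/- mice had 0.487, 0.532, 1.20, 0.587 and 0.461 FPKM. The saline-treated WT mice had 4.53, 1.80, 0.494, 0.979 and 1.16 FPKM, so that WT replicate 1 was high for a mouse without Ang II. The mean was 11.4 ± 3.66 (SD, n = 5) against 0.824 ± 0.451 (SD, n = 5) between the Ang II-treated genotypes, a ratio of 13.8. The difference was 2.75 ± 0.22 (SE) on the log2 scale and lay between 2.60 and 2.87 when any 1 mouse was left out.

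Has2, the synthase on chromosome 15 from 56665627 to 56694539 (minus strand, ENSMUSG00000022367), was nearly silent outside the Ang II-treated Plod1-/- group. Those mice had 0.644, 2.28, 3.17, 3.25 and 3.79 FPKM in replicates 1 to 5. No mouse of the other 3 groups exceeded 0.299 FPKM. The lowest of the 5 was replicate 1, the mouse with the high smooth muscle sum. The log2 difference between the Ang II-treated genotypes was 1.60 ± 0.28 (SE), computed as a plain difference because Has2 did not pass the filter of 1 FPKM in 5 of 10 mice. Has2os, an antisense gene, overlaps Has2, and the libraries did not mark strand, so Has2 reads at this level are uncertain; Has2os itself was listed between 0.0234 and 0.850 FPKM.

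Has3, the remaining synthase, was not among the 8 genes but sets the balance between them. Its mean was lowest where Has1 was highest, with 0.460 ± 0.349 FPKM (SD, n = 5) in the Ang II-treated Plod1-/- mice. The other means were 1.86 ± 0.566 for WT mice given saline, 0.966 ± 0.573 for WT mice given Ang II and 1.28 ± 0.234 for Plod1-/- mice given saline (SD, n = 5). Of the FPKM of the 3 synthase genes together, Has3 made up 33.8% to 81.3% in saline-treated WT, 26% to 66.4% in Ang II-treated WT and 53.0% to 72.6% in saline-treated Plod1-/- mice. In Ang II-treated Plod1-/- mice it made up 0.884% to 8.20%, below every other mouse. The Has1 share overlapped between groups, at 69.7% to 89.3% in Ang II-treated Plod1-/-, 22.5% to 70.4% in Ang II-treated WT, 16.9% to 62.1% in saline-treated WT and 22.7% to 44.7% in saline-treated Plod1-/- mice. The summed level of the synthases was 10.4 to 21.3 FPKM in these mice and at most 7.29 in any other. Has3 itself was below the filter between the Ang II-treated genotypes. Its response to Ang II was -0.665 ± 0.15 (SE, limma adjusted p = 0.00516) in Plod1-/- and -0.56 ± 0.19 (adjusted p = 0.0416) in WT mice. Neither was called, because the size was below 1. In both responses Has3 passed the filter mainly through the saline-treated mice, in which it was higher, so these values are a description.

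**Figure D1:**
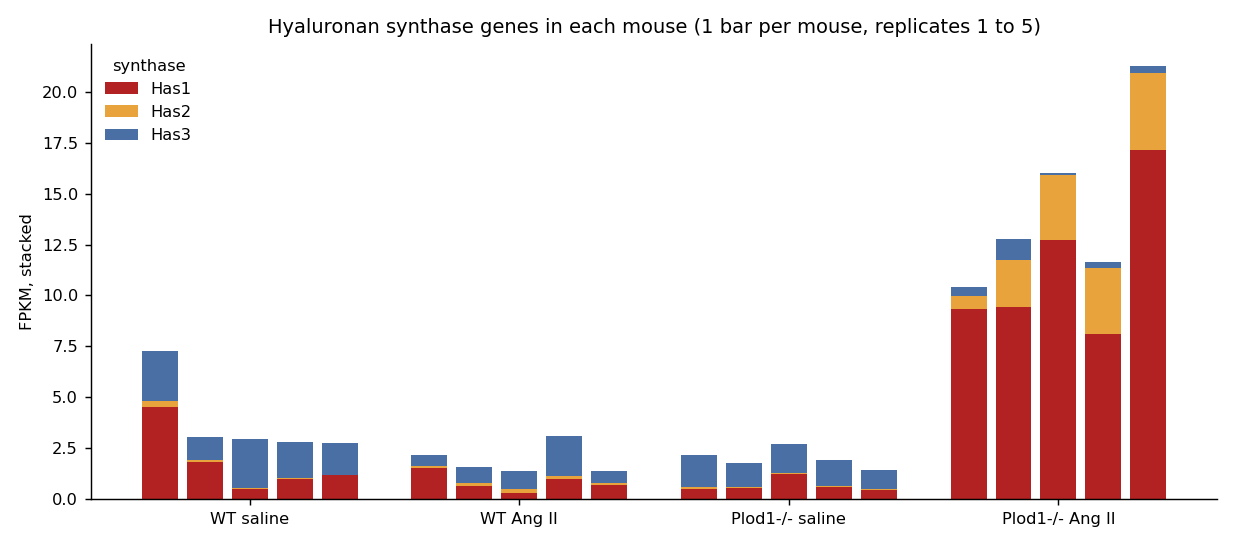
Stacked FPKM of Has1, Has2 and Has3 (vertical axis) in each of the 20 mice, 1 bar per mouse by group. The summed bars of Ang II-treated Plod1-/- mice stand at 10.4 to 21.3 FPKM with Has3 at 0.884% to 8.20% of the bar. Has3 makes up 26% to 81.3% of the lower bars in the other groups, of which some are also mostly Has1, such as Ang II-treated WT replicate 1 at 70.4%.

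Tnfaip6, whose product TSG-6 cross-links hyaluronan during inflammation, lies on chromosome 2 from 52038009 to 52056686 on the plus strand (ENSMUSG00000053475). Ang II-treated Plod1-/- replicates 1 to 5 had 11.0, 14.6, 14.8, 11.2 and 21.5 FPKM. Ang II-treated WT replicates had 3.14, 0.954, 1.01, 1.92 and 1.49 FPKM. All 5 of the former were above all mice of the other groups. Saline-treated WT mice had 10.3, 4.28, 1.77, 3.33 and 2.16 FPKM, with replicate 1 again the highest. Saline-treated Plod1-/- mice had 1.29, 0.433, 0.958, 1.00 and 0.876 FPKM and formed the lowest group. Between the Ang II-treated genotypes the ratio of means was 8.58 and the log2 difference 2.55 ± 0.24 (SE).

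Cd44, the main cell surface receptor for hyaluronan, lies on chromosome 2 from 102811141 to 102901665 on the minus strand (ENSMUSG00000005087). Its FPKM was 37.5, 14.5, 27.9, 24.9 and 24.4 in Ang II-treated Plod1-/- replicates 1 to 5 and 5.66, 2.52, 2.78, 4.41 and 3.17 in Ang II-treated WT replicates. Saline-treated WT mice ranged from 4.47 to 10.3 and saline-treated Plod1-/- mice from 3.45 to 5.38. No mouse outside the Ang II-treated Plod1-/- group reached the lowest member of that group. Replicate 1, with the smallest macrophage marker sum of the group, had the highest Cd44 value. Between the Ang II-treated genotypes the ratio of means was 6.97 and the log2 difference 2.50 ± 0.25 (SE), or 2.35 without replicate 1 of the Ang II-treated Plod1-/- group. The values are per gene, so the CD44 isoforms were not told apart.

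Vcan, on chromosome 13 from 89655312 to 89742509 (minus strand, ENSMUSG00000021614), did not follow the synthases. In WT mice its mean FPKM was 10.3 ± 3.01 under saline and 7.23 ± 4.31 under Ang II (SD, n = 5). In Plod1-/- mice it was 12.9 ± 2.02 under saline and 8.80 ± 3.82 under Ang II (SD, n = 5). The ranges of all 4 groups overlapped. The log2 difference between the Ang II-treated genotypes was 0.30 ± 0.34 (SE), smaller than its error.

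Hyal1, the lysosomal hyaluronidase on chromosome 9 from 107576927 to 107581710 (plus strand, ENSMUSG00000010051), was lowest where Has1 was highest. Ang II-treated Plod1-/- replicates 1 to 5 had 1.75, 3.06, 1.79, 1.74 and 2.39 FPKM. Ang II-treated WT replicates had 4.49, 3.32, 7.51, 9.63 and 3.12 FPKM. The groups did not overlap, but the gap was narrow, since the highest Plod1-/- mouse had 3.06 and the lowest WT mouse 3.12. Saline-treated mice had 5.67 to 11.8 FPKM (WT) and 4.59 to 11.4 FPKM (Plod1-/-). The log2 difference between the Ang II-treated genotypes was -0.99 ± 0.26 (SE). Naa80, a gene on the same strand that overlaps Hyal1, was lowest in the same mice. Under Ang II it was at 11.97 ± 2.83 FPKM (SD, n = 5) in Plod1-/- and 29.1 ± 7.64 in WT mice, and under saline at 37.2 ± 4.27 and 39.5 ± 2.95. Reads of Naa80 could be assigned to Hyal1 in part, and its share in the Hyal1 value was not tested.

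Hyal2, the neighbouring hyaluronidase on chromosome 9 from 107567945 to 107572779 (plus strand, ENSMUSG00000010047), is anchored at the cell surface. It was the most even of the 8 genes, between 11.6 and 21.3 FPKM over the 20 mice. The log2 difference between the Ang II-treated genotypes was -0.20 ± 0.14 (SE). Cemip, on chromosome 7 from 83932857 to 84086502 (minus strand, ENSMUSG00000052353), depolymerises hyaluronan. It was listed at 0.173, 0.170, 0.327, 0.978 and 1.90 FPKM in Ang II-treated Plod1-/- replicates 1 to 5. No other mouse exceeded 0.111 FPKM, so the groups did not overlap although the level stayed low. The log2 difference was 0.61 ± 0.26 (SE), below the filter.

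**Figure D2:**
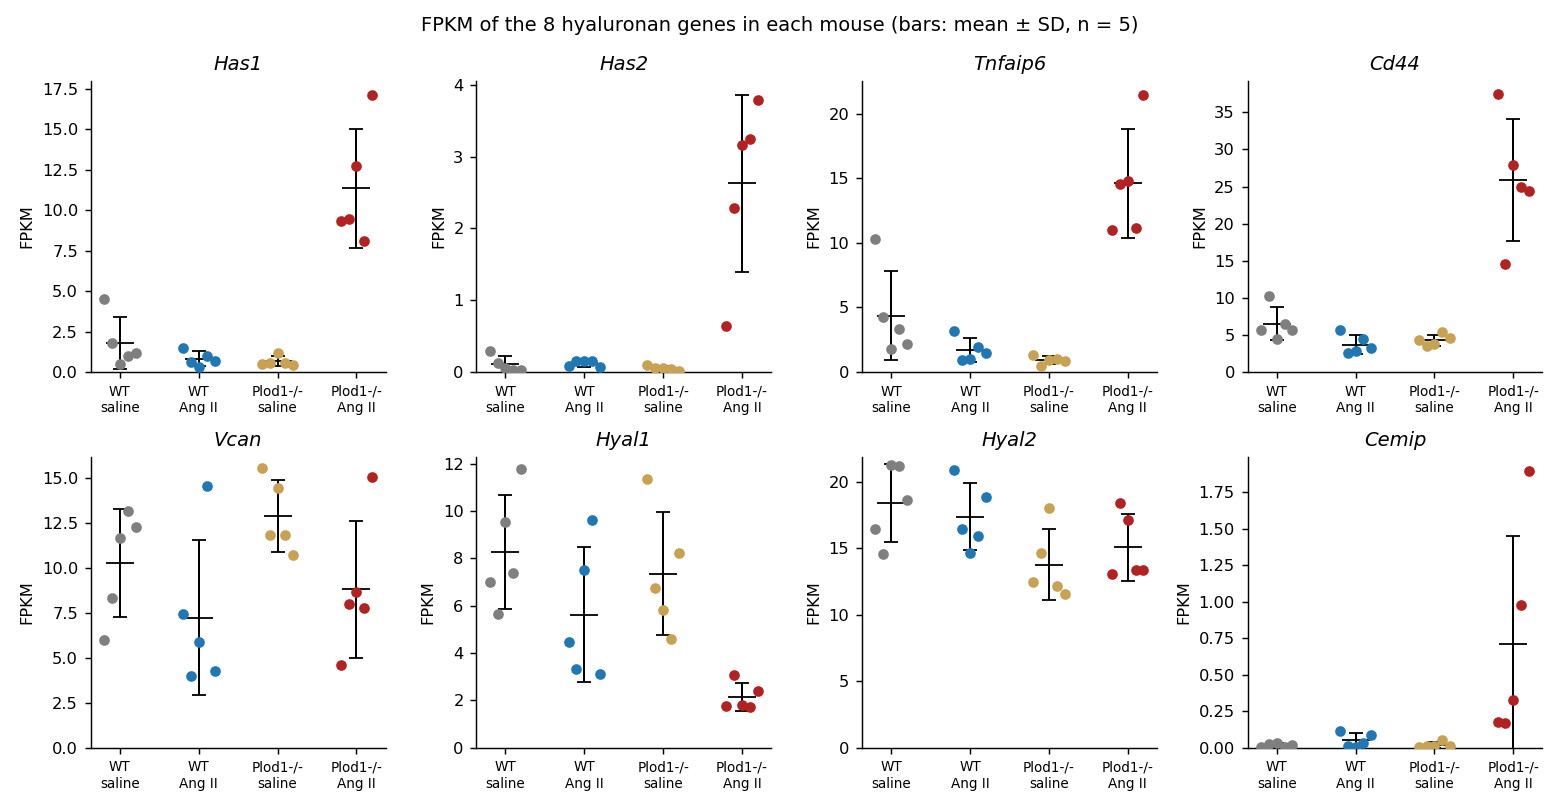
FPKM (vertical axis, from 0, scaled separately for each gene) of the 8 genes in each mouse by group, with the mean and SD (n = 5); the lower end of the Cemip bar is cut at 0. Has1, Has2, Tnfaip6 and Cd44 show the Ang II-treated Plod1-/- mice above all others, Hyal1 shows them below, and Vcan and Hyal2 overlap.

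Between the Ang II-treated genotypes, 6 of the 8 genes passed the filter and 3 of these, Has1, Tnfaip6 and Cd44, were past the threshold for higher expression. Of all 12356 genes tested, 7.45% were called higher, 3.67% were called lower and 15.1% had groups that did not overlap. The 8 genes were chosen on this contrast, so nothing is read from their count. On the same reservation, the response to Ang II in Plod1-/- mice was 2.87 ± 0.19 (SE) for Has1, 3.01 ± 0.18 for Tnfaip6, 2.30 ± 0.21 for Cd44 and -1.37 ± 0.21 for Hyal1. It was -0.57 ± 0.23 (SE) for Vcan and 0.12 ± 0.14 for Hyal2, and as a plain difference 1.69 ± 0.28 for Has2 and 0.65 ± 0.26 for Cemip. Both comparisons share the Ang II-treated Plod1-/- mice. In this response, 8.38% of 12333 genes were called higher, 5.51% were called lower and 29.2% had groups that did not overlap.

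In WT mice Ang II gave no such rise. Has1 differed by -0.49 ± 0.36 (SE), Tnfaip6 by -0.85 ± 0.35 and Cd44 by -0.68 ± 0.22 between Ang II and saline, as a description, and the groups overlapped for all 3. The other 5 members were tested, with the reservation that the Ang II-treated WT mice are also the control group of the contrast on which members were chosen. By limma, the adjusted p was 0.168 for Vcan (-0.54 ± 0.30, SE), 0.124 for Hyal1 (-0.55 ± 0.28) and 0.654 for Hyal2 (-0.08 ± 0.14). Exact permutation tests of the same log2 values, two-sided, gave p = 0.722 for Has2 (difference 0.03) and p = 0.206 for Cemip (difference 0.05), or 0.825 and 0.516 adjusted over the 5 such tests made. Hence 0 of the 3 members tested by limma were called, beside 6.38% of 11994 genes called higher, 2.28% called lower and 17.3% with groups that did not overlap. None of the 3 had an unadjusted p below 0.05.

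The difference between the responses of the genotypes, Plod1-/- minus WT, was 3.37 ± 0.39 (SE) for Has1, 3.86 ± 0.42 for Tnfaip6 and 2.97 ± 0.32 for Cd44. It was -0.82 ± 0.36 (SE) for Hyal1, 0.20 ± 0.20 for Hyal2 and -0.03 ± 0.41 for Vcan. These are descriptions, since the contrast contains the one used to choose the genes. Of 13263 genes tested for this interaction, 9.69% were called higher and 6.36% lower.

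**Figure D3:**
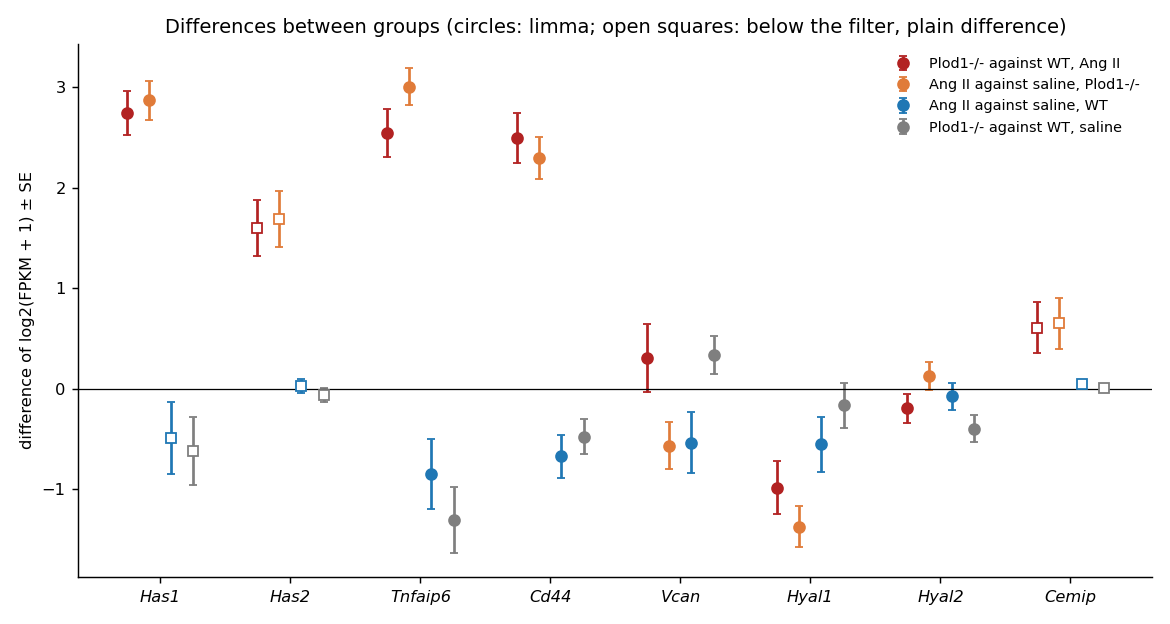
Difference of log2(FPKM + 1) with its SE (vertical axis) for the 8 genes in 4 comparisons; circles are limma estimates and open squares plain differences of genes below the filter. Has1, Tnfaip6 and Cd44 lie between 2.30 and 3.01 in both comparisons that use Ang II-treated Plod1-/- mice and below 0 in the other 2.

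The comparison of the saline-treated genotypes used no Ang II-treated mouse. It therefore held none of the values of the contrast on which the genes were taken to be chosen. That contrast was assumed. Had a response to Ang II been meant, saline-treated mice would have entered the choice, and the p values below carry this reservation. Tnfaip6 was lower in Plod1-/- mice, at 0.913 ± 0.311 FPKM (SD, n = 5) against 4.37 ± 3.47 (SD, n = 5), with a log2 difference of -1.31 ± 0.33 (SE, limma adjusted p = 0.0402). All 5 Plod1-/- mice were below all 5 WT mice. The call was weak: it was lost in 8 of 10 fits that each left out 1 mouse, with adjusted p from 0.0289 to 0.0919, and the difference was -0.99 without saline-treated WT replicate 1. Markers of some other classes were lower too. The median difference of a marker list was above 0 for smooth muscle (0.16), brown adipocyte (0.87) and white adipocyte markers (0.97). It was below 0 for the other marker lists with genes that passed the filter. Of 10 fibroblast markers, 2 were called lower in Plod1-/- mice and 6 were lower at an unadjusted p below 0.05, and their summed FPKM was 689 to 1079 against 1041 to 1613 in WT mice. Of 9 endothelial markers tested, 0 were called by limma and 4 were lower at an unadjusted p below 0.05, with sums over the 10 markers of 96.1 to 204 against 139 to 343. Of all 11999 genes tested, 3251 had an unadjusted limma p below 0.05 in either direction, and 0.408% were called lower. Of 15 immediate early genes, a class induced within minutes of stimulation, 2 were called lower. Their summed FPKM was 755 to 3320 in saline-treated WT and 355 to 1715 in saline-treated Plod1-/- mice, and WT replicate 1 had the highest sum. The part of these 3 lists in the result was not tested.

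No other member was called between the saline-treated genotypes. By limma, adjusted p was 0.111 for Cd44 (-0.48 ± 0.18, SE), 0.0960 for Hyal2 (-0.40 ± 0.14), 0.276 for Vcan (0.33 ± 0.19) and 0.657 for Hyal1 (-0.17 ± 0.22). Two-sided exact permutation tests gave p = 0.103 for Has1 (difference -0.62), 0.437 for Has2 (-0.06) and 0.825 for Cemip (0.00), and 0.516, 0.728 and 0.825 after adjustment over the 5 tests. With 5 mice against 5 the smallest p of such a test is 0.00794. Has1 was thus lower on average, as Tnfaip6 was, but not beyond the spread between mice. Among 11999 genes tested here, 0.358% were called higher, 0.408% were called lower and 9.52% had groups that did not overlap. The 1 call among the 5 members tested by limma was that of Tnfaip6, chosen for its strong signal and weak in this comparison. Nothing is read from this count.

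Has1 and Tnfaip6 varied together between mice. Pearson's r of log2(FPKM + 1) over the 20 mice was 0.964, and 0.891 after the group means were removed. Among 13263 genes, Tnfaip6 was the gene most like Has1, followed by Mapk6 (r = 0.959), an atypical MAP kinase, and Gpx7 (r = 0.950), a peroxidase of the endoplasmic reticulum. For Tnfaip6 the closest were Myc (r = 0.968), a growth-related transcription factor, then Has1 and Mapk6 (r = 0.953). Cd44 was closest to Surf4 (r = 0.974), a cargo receptor of the secretory pathway, Nans (r = 0.968), the sialic acid synthase, and Jpt2 (r = 0.967). These values are descriptions over 20 libraries that share their group differences and cell make-up. Cd44 followed Has1 mainly through the group means, with r = 0.915 over all mice and 0.271 with the means removed.

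**Figure D4:**
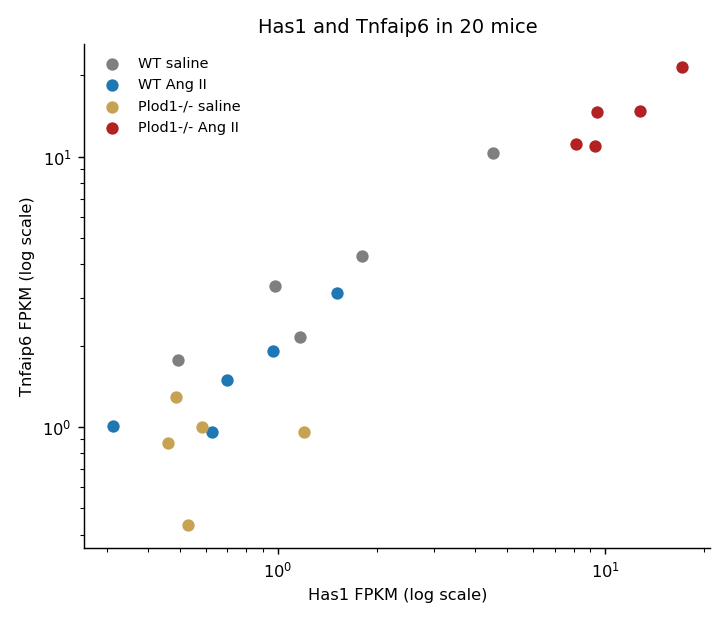
Has1 FPKM (horizontal axis, log scale) against Tnfaip6 FPKM (vertical axis, log scale) in the 20 mice, coloured by group. Saline-treated WT replicate 1, at 4.53 and 10.3 FPKM, lies between the other mice without Ang II and the Ang II-treated Plod1-/- mice.

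By level, the order among the 8 genes differed between groups; FPKM are per transcript length and can be set side by side. In saline-treated WT mice Hyal2 (18.4 ± 2.93 FPKM, SD, n = 5) was highest, followed by Vcan (10.3 ± 3.01), Hyal1 (8.27 ± 2.40), Cd44 (6.54 ± 2.22), Tnfaip6 (4.37 ± 3.47) and Has1 (1.79 ± 1.60). Has2 and Cemip were near 0. The ranges of the mice overlapped for each neighbouring pair from Vcan to Has1, but Hyal2 lay above Vcan in every mouse. In Ang II-treated Plod1-/- mice the highest was Cd44 (25.9 ± 8.22), followed by Hyal2 (15.1 ± 2.51), Tnfaip6 (14.6 ± 4.25), Has1 (11.4 ± 3.66), Vcan (8.80 ± 3.82), Has2 (2.63 ± 1.23) and Hyal1 (2.15 ± 0.579). There the ranges of neighbours from Cd44 to Vcan overlapped, as did those of Has2 and Hyal1, and Vcan and Has2 did not overlap.

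The other genes of the pathway were counted over 56 genes in 6 lists. The lists were precursor synthesis, breakdown, receptors, matrix partners, versican proteases and CD44 partners. Genes of the last 2 lists were included through versican or CD44 and not for acting on hyaluronan itself. Between the Ang II-treated genotypes 9 of the 39 tested were called higher in Plod1-/- mice and 0 lower, beside 7.45% and 3.67% of all genes, with a median difference of 0.66 against 0.12 over all genes tested. Of the 9 calls, 4 were among 11 CD44 partners and 2 among 5 versican proteases. At an unadjusted limma p below 0.05, 22 of the 39 were higher and 3 lower, in a comparison where 5374 of all 12356 genes were below it in either direction. The count called higher ran from 5 to 13 when any 1 mouse was left out, with 5 without Ang II-treated Plod1-/- replicate 3 or 4, 6 without replicate 5 or without WT replicate 2, 3 or 5, and 13 without Plod1-/- replicate 1. In the response of Plod1-/- mice 11 of 40 were called higher and 3 lower, beside 8.38% and 5.51%. In the response of WT mice 1 of 38 was called higher and 5 lower, beside 6.38% and 2.28%. The 5 became 1 without Ang II-treated WT replicate 2 or 5, 2 without Ang II-treated replicate 3 or saline-treated replicate 2, and 3 without saline-treated replicate 4, and the 1 became 2 without replicate 1 or 4 of the Ang II-treated or 1 or 3 of the saline-treated mice. For the difference between these responses 15 of 41 were called higher and 2 lower, beside 9.69% and 6.36%. Ptx3 and Adamts4, counted among the 9 and the 15, passed the filter only with the Ang II-treated Plod1-/- mice, in which they were high. The same holds for Ptx3 among the 11, and Hapln1 among the 3 passed through the saline-treated mice. The counts are therefore a description, and the shares over all genes came from the same filter. Between the saline-treated genotypes 1 of 39 was called in each direction, beside 0.358% and 0.408%. The higher call was lost without saline-treated WT replicate 2 or Plod1-/- replicate 2, 4 or 5, and 2 were lower without WT replicate 1 or 3 or Plod1-/- replicate 3.

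Among genes of precursor synthesis, 1 of the 8 tested was called between the Ang II-treated genotypes, beside 7.45% of all genes called higher and 3.67% called lower. Pgm3, Gfpt1, Gnpnat1 and Uap1 were higher in Plod1-/- mice with a limma adjusted p below 0.05, but by less than 1. At an unadjusted limma p below 0.05, 5 of the list were higher and 1 lower. Ugdh, which makes UDP-glucuronic acid, had a mean under Ang II of 15.0 ± 3.40 FPKM (SD, n = 5) for Plod1-/- against 5.30 ± 1.96 (SD, n = 5) for WT mice, and the groups did not overlap. It was higher by 1.37 ± 0.22 (SE, limma adjusted p = 0.00250). With Ang II it rose in Plod1-/- mice (1.28 ± 0.14, adjusted p = 9.47e-05) and fell in WT mice (-1.03 ± 0.25, adjusted p = 0.0116), the latter call being kept in 5 of 10 fits without 1 mouse and lost with quantile normalization (-0.99). Uap1, which makes UDP-N-acetylglucosamine, rose with Ang II in Plod1-/- mice (1.12 ± 0.17, adjusted p = 0.000628). Across the 9 genes of the list, 5 had a response that was called different between genotypes, namely Ugdh, Uap1, Pgm3, Gfpt2 and Gfpt1, all higher in Plod1-/- mice. Gnpnat1 was not called because its difference between the responses, 0.73 ± 0.16 (SE, limma adjusted p = 0.00210), was below 1. The calls of Gfpt2 and Gfpt1 were lost with quantile normalization, and that of Gfpt2 in 3 further alternatives. Ugp2 was not called in any comparison.

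Among matrix partners, 1 of 7 tested genes was called higher and 3 lower in the response of Plod1-/- mice, beside 8.38% and 5.51% of all genes. Ptx3, whose product pentraxin 3 binds TSG-6 and heavy chains in hyaluronan matrices, had a mean under Ang II of 22.8 ± 12.7 FPKM (SD, n = 5) for Plod1-/- and 1.52 ± 2.57 (SD, n = 5) for WT mice. Its difference was 3.49 ± 0.51 (SE), and 3.74 ± 0.31 in the response of Plod1-/- mice. Ptx3 passed the filter through the mice in which it was high, since 4 of 5 Ang II-treated WT mice and every saline-treated Plod1-/- mouse were below 1 FPKM, so the limma adjusted p is given from the fits without a filter (0.00780 and 0.000142). Itih2 and Itih3 encode heavy chains that TSG-6 transfers, and Hapln1 encodes a link protein that ties versican to hyaluronan. In Plod1-/- mice Itih2 fell with Ang II by 1.75 ± 0.20 (adjusted p = 0.000128) and Itih3 by 1.48 ± 0.17 (adjusted p = 0.000117). Hapln1 fell by 1.12 ± 0.10, and it passed the filter through the saline-treated mice alone (1.48 to 2.22 FPKM against at most 0.484), so its adjusted p of 0.000308 is also from the fit without a filter. Itih3 was below 1 FPKM in 3 of 5 Ang II-treated mice, and its adjusted p without a filter was 0.00052. The other heavy chain genes tested, Itih4 (0.40 ± 0.45, adjusted p = 0.502) and Itih5 (0.24 ± 0.34, adjusted p = 0.589), were not called in this response and are named after their values were seen. Itih2 went from 21.0 ± 4.41 to 5.69 ± 1.97 FPKM (SD, n = 5), with no overlap. Between the Ang II-treated genotypes none of the 4 heavy chain genes was called, with -0.99 ± 0.25 (adjusted p = 0.0149) for Itih2, -0.68 ± 0.18 (0.0158) for Itih3, 0.98 ± 0.95 (0.449) for Itih4 and -0.50 ± 0.37 (0.321) for Itih5.

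Of the other receptors 1 of 5 tested and of the proteases that cleave versican 2 of 5 were called higher between the Ang II-treated genotypes, beside 7.45% of all genes. In either list 0 were lower at an unadjusted limma p below 0.05. Stab1, a scavenger receptor of macrophages and sinusoidal endothelium, was higher in Ang II-treated Plod1-/- than WT mice (1.75 ± 0.57, adjusted p = 0.0376). This call was kept in 2 of 10 fits without 1 mouse and lost without a filter (adjusted p = 0.103). It rose with Ang II in Plod1-/- mice (2.70 ± 0.57, adjusted p = 0.00330). Lyve1, the lymphatic hyaluronan receptor, was not called in any comparison. Adamts4 was higher in Ang II-treated Plod1-/- mice by 2.004 ± 0.45, at 0.704 to 10.03 FPKM against 0.155 to 1.58. It too passed the filter mainly through the mice in which it was high, and its adjusted p without a filter was 0.0322. Adamts1 was also higher in Ang II-treated Plod1-/- than WT mice (1.16 ± 0.35, adjusted p = 0.0296), a call kept in 4 of 10 fits without 1 mouse and lost without a filter (adjusted p = 0.0816) and without the libraries with Xist RNA (0.93). It fell with Ang II in WT mice (-2.38 ± 0.33, adjusted p = 0.00181), was lower in saline-treated Plod1-/- than WT mice (-1.40 ± 0.19, adjusted p = 0.00580), and was not called in the response of Plod1-/- mice (0.18 ± 0.22, adjusted p = 0.536). Adamts5 was not called in any comparison.

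Among CD44 partners, the ligands osteopontin (Spp1) and serglycin (Srgn), the cytoskeletal linker ezrin (Ezr) and the sheddase Mmp14 were called higher between the Ang II-treated genotypes. These were 4 of 11, beside 7.45% of all genes called higher. Srgn was higher by 1.61 ± 0.38 (SE, limma adjusted p = 0.0109), Ezr by 1.42 ± 0.20 (adjusted p = 0.00166) and Mmp14 by 1.77 ± 0.39 (adjusted p = 0.00834). Spp1 was higher by 3.12 ± 0.95 (adjusted p = 0.0296), with 79.6 to 828 FPKM against 9.37 to 282. This call was kept in 3 of 10 fits and lost without a filter (adjusted p = 0.0848). Between the saline-treated genotypes Spp1 was also higher in Plod1-/- mice (1.81 ± 0.38, adjusted p = 0.0277), a call kept in 6 of 10 fits. That call was lost without a filter (adjusted p = 0.0916), in one fit of all 4 groups and without the libraries with Xist RNA. Spp1 was the 1 gene of the pathway called higher with Ang II in both genotypes, by 4.37 ± 0.69 (adjusted p = 0.000662) in Plod1-/- and 3.05 ± 0.75 (adjusted p = 0.0115) in WT mice, and the difference between these responses was not called (1.31 ± 1.09, adjusted p = 0.358). Of the degrading genes outside the 8, Gusb, a lysosomal glucuronidase, was called in the response of Plod1-/- mice (1.03 ± 0.26, adjusted p = 0.00962), a call kept in 7 of 10 fits without 1 mouse and lost with quantile normalization (0.96) and without mitochondrial genes (0.96). Cemip2, a cell surface hyaluronidase, was called in the difference between the responses, but not with quantile normalization (0.96). Hexa was not called in any comparison.

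**Figure D5:**
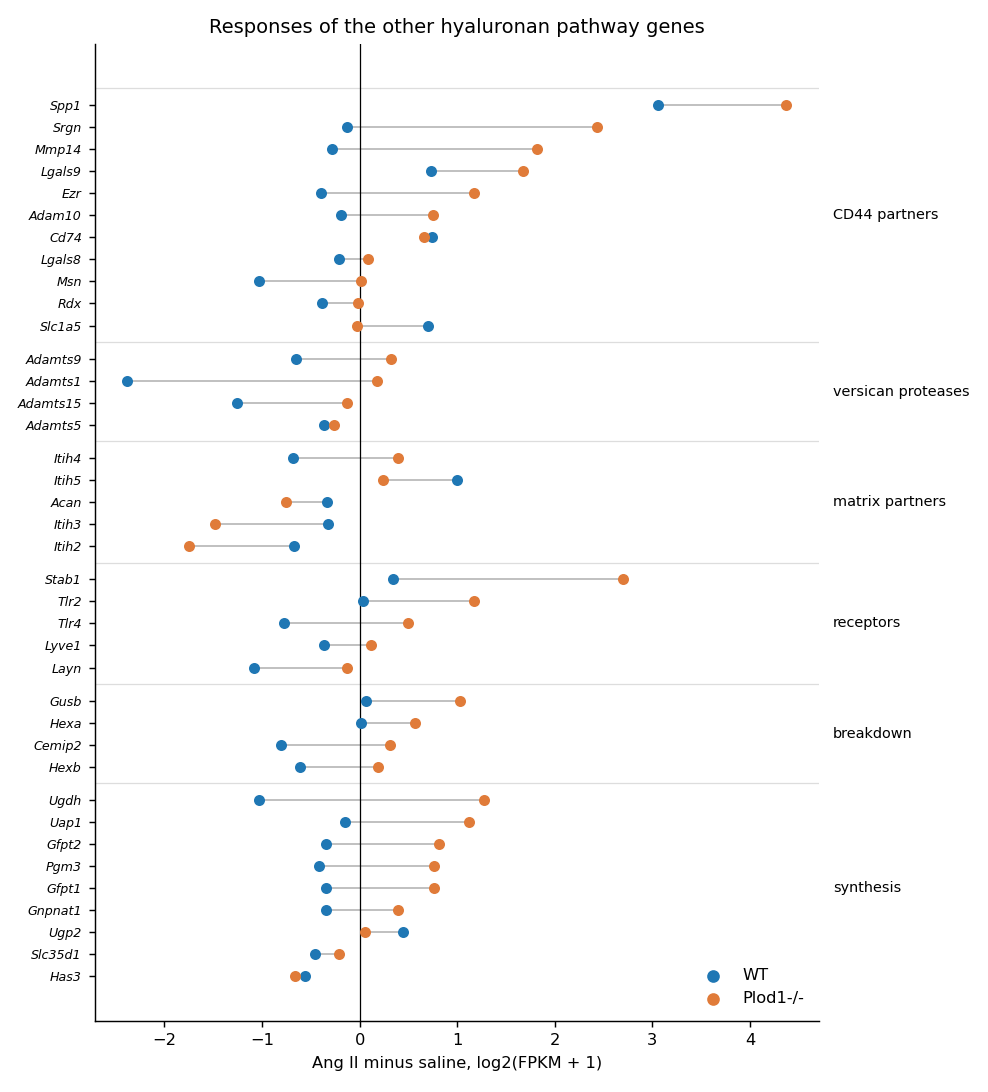
Response to Ang II (horizontal axis, difference of log2(FPKM + 1) from saline) in WT and in Plod1-/- mice for 38 other hyaluronan pathway genes tested in both, grouped by role. Ugdh lies at -1.03 in WT and 1.28 in Plod1-/- mice, whereas Itih2 and Itih3 lie further below 0 in Plod1-/- than in WT mice.

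Markers of other cells moved with these results. Between the Ang II-treated genotypes 7.45% of all genes were called higher and 3.67% lower. Over 12 macrophage markers such as Lyz2 and C1qa, the summed FPKM was 1134 to 5966 in Ang II-treated Plod1-/- and 431 to 2288 in Ang II-treated WT mice, and 10 of 12 were called higher. Over 10 neutrophil markers it was 140 to 709 against 6.91 to 191, and Ly6g was listed at 0 in 11 of 20 mice. All 4 neutrophil markers that passed the filter were called higher. Only 2 passed it in the response of WT mice, so some passed only with the Ang II-treated Plod1-/- mice. Nothing is read from this count. Over 10 fibroblast markers the sum was 1424 to 7232 against 789 to 1487, with 3 called higher and 2 lower. Smooth muscle markers summed to 2428 to 17540 against 5702 to 17580 and 2 of 10 were called lower. Over 8 brown adipocyte markers the sum was 166 to 613 against 613 to 4875, and 6 of 7 tested were called lower. Under saline this sum was 28.6 to 440.5 in WT and 27.1 to 1408 in Plod1-/- mice. Its median was highest in the Ang II-treated WT mice (3182). In the response of WT mice 6 of 7 brown and 7 of 7 white adipocyte markers tested were called higher, beside 6.38% of all genes. Between the Ang II-treated genotypes, mesothelial markers summed to 9.73 to 42.3 in Plod1-/- against 5.11 to 13.9 in WT mice. Of these, 0 of 6 were called by limma and 1 was higher at an unadjusted p below 0.05. In whole aorta, more cells of a type and more RNA per cell cannot be told apart, and the part of these markers in the hyaluronan genes was not tested.

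These sums can be set beside the members mouse by mouse. Within the Ang II-treated Plod1-/- group, replicate 3 had the largest macrophage sum (5966) and the largest neutrophil sum (709). Replicate 5 had the largest fibroblast sum (7232) and the highest Has1, Has2, Tnfaip6, Vcan and Cemip values. The fibroblast sum is carried mostly by collagen genes. Over all mice Col1a1 reached 3049, Col3a1 1893 and Col1a2 1216 FPKM, against at most 304 for any other marker of that list. Replicate 1 had the smallest macrophage sum (1134) and the highest Cd44, and its Has1, at 9.31 FPKM, was within the range of the other 4 mice. Immediate early genes summed to 876 to 2104 FPKM in Ang II-treated Plod1-/- and 205 to 376 in Ang II-treated WT mice. Saline-treated WT mice had sums as high, 755 to 3320, with Has1 at 0.494 to 4.53 FPKM. In that group replicate 1 had the highest sum and the highest Has1. A link between these sums and the members was not tested.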

How the data were processed

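The authors sequenced abdominal aortas of 20 mice with a TruSeq RNA V2 kit, which does not mark strand. Reads were aligned with HISAT2, transcripts assembled with stringtie and levels estimated by cuffquant and cuffnorm. The submitters' processing notes also name HISAT2 2.1.0, Bowtie2 2.2.3, HTSeq 0.6.0 and mm10. The deposited FPKM values are per Ensembl gene and normalized between libraries by the authors. Read counts were not used here, so depth is unknown and no counting interval is given. Symbols and coordinates came from GENCODE M21 (GRCm38), which held 43226 of the 43422 genes, and promoters from RefSeq.

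The members, gene lists and tests were chosen with earlier results of these data known. Groups were compared with limma 3.58.1 (R 4.3.3) on log2(FPKM + 1), eBayes with a variance trend, over genes that reached 1 FPKM in 5 or more of the compared mice (of all 20 for the interaction). Members below the filter were tested by exact permutation, two-sided. The method was tested on simulated data. Figures used Python 3.11.15 and matplotlib 3.10.9. Replicates are separate mice by their labels. Named pathway genes were up to 4 called genes of each list and comparison with the largest difference, and up to 2 uncalled genes with the highest mean FPKM. For each of Has1, Tnfaip6 and Cd44, the 3 genes with the highest r were named. Has3, Hapln1 and Naa80 values by group, Itih4 and Itih5, Xist, Tagln and individual marker values were given after they were seen. Alternatives were a pseudocount of 0.1, no filter, a replicate block, no variance trend, weights per mouse, quantile normalization, mitochondrial genes left out, all 4 groups in one fit, both libraries with Xist RNA left out, and each mouse left out in turn.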

Additional observations from a re-analysis of the deposited data

Results flagged for a closer look

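Of 32 sets of 5 mice, 8 genes in 4 groups, 2 held a mouse whose distance from its nearest neighbour was large for the range of the group. Chance gives about 1 such set in 20. Both were in the saline-treated Plod1-/- group: Has1 in replicate 3 was at 1.20 FPKM against 0.461 to 0.587 in the other 4 mice, and Cemip in replicate 4 was at 0.0545 FPKM against 0.00574 to 0.0138. Both levels were at or near the low end of what was measured, and neither gene was called between the saline-treated genotypes.

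By limma's interaction test, the response to Ang II was called different between the genotypes for 17 of 41 other genes of the hyaluronan pathway tested. Of these 15 were higher and 2 lower, beside 9.69% of all genes called higher and 6.36% called lower. The lists of versican proteases and CD44 partners are included. The named 16 follow as the log2 response of Plod1-/- minus that of WT mice. In precursor synthesis the difference was 2.30 for Ugdh, 1.27 for Uap1, 1.19 for Pgm3 and 1.15 for Gfpt2. For Gfpt2, an isoform of the first enzyme of hexosamine synthesis, the call was kept in 9 of 20 fits without 1 mouse and lost without a filter, with quantile normalization, without mitochondrial genes and without the libraries with Xist RNA. In matrix assembly it was 4.32 for Ptx3, -1.15 for Itih3 and -1.08 for Itih2, the last kept in 15 of 20 fits without 1 mouse and lost with weights per mouse (-0.88). Among receptors and degrading proteins it was 2.35 for Stab1, 1.27 for Tlr4 and 1.12 for Cemip2, which was kept in 18 of 20 fits and lost with quantile normalization (0.96). Among the versican proteases it was 2.56 for Adamts1 and 2.17 for Adamts4. Ptx3 and Adamts4 passed the filter only with the Ang II-treated Plod1-/- mice, in which they were high, so nothing is read from their part in the count. Among CD44 partners the difference was 2.56 for Srgn, 2.1 for Mmp14, 1.57 for Ezr and 1.04 for Msn. A positive difference need not be a rise in Plod1-/- mice. The response was 0.02 in Plod1-/- and -1.03 in WT mice for Msn, and 0.18 and -2.38 for Adamts1. For Srgn it was 2.43 and -0.13, and for Mmp14 1.82 and -0.28. The call of Msn was kept in 14 of 20 fits without 1 mouse and lost under the same 4 alternatives as Gfpt2.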

How the results depend on the processing

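Depth is unknown, so low values such as those of Has2 and Cemip carry an error that could not be computed, and members below 1 FPKM depend on the pseudocount. Of the values given for members as a description, 11 of 504 moved by more than 1 SD. With a pseudocount of 0.1 the difference between the Ang II-treated genotypes was 3.72 for Has1, 3.44 for Has2, 3.11 for Tnfaip6 and 2.01 for Cemip, the response of Plod1-/- mice was 3.95, 3.96, 3.88 and 2.31, and the difference between responses was 4.77 for Has1 and 5.03 for Tnfaip6. With weights per mouse the last value was 0.48 for Vcan, against -0.03. Quantile normalization moved the median of all genes from 0.12 to -0.03 between the Ang II-treated genotypes, from 0.05 to -0.06 in the response of Plod1-/- mice and from 0.12 to -0.01 in the difference between responses, and the directions of Has1, Tnfaip6, Cd44 and Hyal1 held under it.

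Between the saline-treated genotypes the Tnfaip6 difference was -1.31 with adjusted p = 0.127 without a filter and 0.0586 with the replicate block, and -1.31 with adjusted p = 0.0782 without the libraries with Xist RNA. Without 1 mouse it ran from -1.50 to -0.99. The Has1 difference ran from -0.80 to -0.33, with exact permutation p = 0.0317 without saline-treated WT replicate 3, and that of Cemip from -0.00889 to 0.00938. In WT mice the Has2 response ran from -0.000792 to 0.0843, and the Cemip response was 0.0764 under quantile normalization (exact permutation p = 0.00794, the smallest possible).

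Counts of other pathway genes between the Ang II-treated genotypes were 17 higher with weights per mouse and 5 to 13 higher and 0 to 1 lower without 1 mouse. The lower count was 2 with a pseudocount of 0.1 and 1 with quantile normalization, without mitochondrial genes and without the libraries with Xist RNA. In WT mice the response held 2 higher and 8 lower with a pseudocount of 0.1, 3 lower without a filter and 3 lower with the replicate block. It held 3 higher with weights per mouse, 2 higher with quantile normalization or without mitochondrial genes, and 1 to 2 higher and 1 to 6 lower without 1 mouse. Between the saline-treated genotypes, 2 were lower with a pseudocount of 0.1, 0 were higher without a filter, in one fit of all 4 groups and without the libraries with Xist RNA, and 0 to 1 were higher and 1 to 2 lower without 1 mouse. For the difference between responses, 25 were higher and 1 lower with weights per mouse, and 1 to 3 lower without 1 mouse.

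Over all genes, weights per mouse gave 1387 higher and 747 lower between the Ang II-treated genotypes (920 and 453 as reported), and fits without 1 mouse 300 to 581 lower. In the WT response, 463 were lower with a pseudocount of 0.1, 502 with weights per mouse and 202 to 487 without 1 mouse (274 as reported). Between the saline-treated genotypes (43 higher and 49 lower), 81 were higher with a pseudocount of 0.1, 25 higher and 16 lower without a filter, 23 lower with the replicate block, 24 higher in one fit of all 4 groups, 26 lower without the libraries with Xist RNA, and 18 to 69 higher and 14 to 64 lower without 1 mouse. The cause was not tested.

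Replicate numbers gave no steady sign of pairing: the correlation of same-numbered deviations ran from -0.33 to 0.42, with 1 or 2 of 5 pairs over 0.1 in each comparison. In the response of Plod1-/- mice it was 0.42 for replicates 2 and 0.37 for replicates 3. These correlations cannot decide whether the numbers pair mice. With the replicate number as a block, Stab1 (adjusted p = 0.0946), Spp1 (0.0805) and Srgn (0.0518) lost their calls between the Ang II-treated genotypes, and Layn and Adamts15 in WT mice. Over the combinations of a single pathway gene call and an alternative in which the gene was still tested, the call held in 939 of 1043. Fits in which the gene fell below the filter are not among these, as for Ptx3, Hapln1 and Adamts4 without some of the mice.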
